A study of Homo sapiens with 20 samples.

Results

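The genes described here were the zinc finger (ZNF) genes of chromosome 19, taken as the mRNAs of that chromosome whose symbol was ZNF followed by a number and at most 1 letter. The rule found 246 genes among 19563 mRNAs, and among 34439 mRNAs and lncRNAs, with transcripts in the deposited files. Their expression was measured by poly(A) RNA-seq in NGP cells, a human neuroblastoma line, exposed to 8 µM nutlin-3 (10 samples, nutlin) or to ethanol as the vehicle (10 samples, vehicle). Nutlin-3 blocks the binding of MDM2 to p53 and so stabilises p53. All samples came from this 1 line. The estimated counts over all transcripts ranged from 14455477 to 19532971 in the vehicle samples and from 15078052 to 17442896 in the nutlin samples.

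Most ZNF genes of chromosome 19 encode proteins with a row of C2H2 zinc fingers that read DNA and, in many, a Krüppel-associated box (KRAB) at the N terminus. The KRAB domain binds TRIM28 (also called KAP1), which brings the histone methyltransferase SETDB1, heterochromatin proteins and deacetylase complexes to the bound site. Many of these repressors bind retrotransposons. The genes arose by tandem duplication and lie in clusters, so that neighbours are often close relatives in sequence.

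Gene-level counts were tested with edgeR's quasi-likelihood test after TMM normalization, and a gene was called significantly differentially expressed (SDE) at a 5% false discovery rate over all 27697 genes tested. The log2 fold change (LFC) is nutlin against vehicle throughout. Levels within a gene are CPM, counts scaled to a common library size after TMM. Single members are ranked by level as TPM, which also take account of transcript length. CPM bins group genes by the counts behind their test, not by transcript level. The labels were checked on 2 p53 targets: MDM2 had 199 to 290 CPM in the vehicle samples and 4797 to 6005 in the nutlin samples, and CDKN1A had 18.8 to 54.9 and 1318 to 1833. All 10 neuroblastoma markers exceeded 1 CPM in every vehicle sample. The 6 fibroblast markers summed to 28.4 to 36.4 CPM in vehicle and 43.0 to 54.9 in nutlin, with COL1A1 at medians of 9.16 and 35.5. Of the other fibroblast markers, LUM (LFC -1.71 ± 0.18) and PDGFRB (-0.95 ± 0.08) fell with separate groups and 3 were not SDE, so the higher sum was that of COL1A1. The 3 endothelial markers summed to at most 2.46 CPM and the immune markers to at most 6.48 CPM, with CD3E at 0. The part of these marker changes in the results below was not tested. In a bulk sample, fewer cells with a transcript and less of it per cell cannot be told apart.

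The promoters of 6 members are shown first, because the results turn on clusters of related genes and these 6 were among the most changed members with a promoter in the RefSeq table (GRCh38.p14, 250 bases before to 50 after the annotated start). ZNF460, ZNF441 and ZNF792 had the largest rises among members of at least 1 CPM with separate groups, and ZNF492, ZNF730 and ZNF93 were among the largest falls. Capitals mark every match, on either strand, to CCAAT (the sequence bound by NF-Y), CCGGAAGT (the core bound by ETS factors), GGGCGG (a GC box) or TTTGAA. ZNF460 has 2 annotated starts, and the RefSeq start of ZNF730 lies inside the longer GENCODE gene.
ZNF460 (chr19:57279732-57280031, plus strand): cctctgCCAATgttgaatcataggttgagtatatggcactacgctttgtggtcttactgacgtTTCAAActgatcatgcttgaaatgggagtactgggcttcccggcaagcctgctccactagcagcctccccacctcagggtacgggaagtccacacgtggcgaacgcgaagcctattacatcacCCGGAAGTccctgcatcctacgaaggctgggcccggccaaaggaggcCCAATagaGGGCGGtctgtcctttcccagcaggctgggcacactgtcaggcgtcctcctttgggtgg
ZNF460 (chr19:57280235-57280534, plus strand): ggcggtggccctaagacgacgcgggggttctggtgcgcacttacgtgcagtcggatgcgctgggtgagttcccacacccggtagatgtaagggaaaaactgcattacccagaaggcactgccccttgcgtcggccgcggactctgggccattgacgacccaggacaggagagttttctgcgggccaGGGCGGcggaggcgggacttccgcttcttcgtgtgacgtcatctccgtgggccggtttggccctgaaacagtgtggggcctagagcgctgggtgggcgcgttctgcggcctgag
ZNF441 (chr19:11766750-11767049, plus strand): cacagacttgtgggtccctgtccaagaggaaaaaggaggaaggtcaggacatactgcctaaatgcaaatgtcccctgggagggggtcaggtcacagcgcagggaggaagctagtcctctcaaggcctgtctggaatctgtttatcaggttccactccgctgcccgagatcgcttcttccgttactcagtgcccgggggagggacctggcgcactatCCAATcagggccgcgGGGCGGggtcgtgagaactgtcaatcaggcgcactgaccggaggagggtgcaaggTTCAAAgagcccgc
ZNF792 (chr19:34964180-34964479, minus strand): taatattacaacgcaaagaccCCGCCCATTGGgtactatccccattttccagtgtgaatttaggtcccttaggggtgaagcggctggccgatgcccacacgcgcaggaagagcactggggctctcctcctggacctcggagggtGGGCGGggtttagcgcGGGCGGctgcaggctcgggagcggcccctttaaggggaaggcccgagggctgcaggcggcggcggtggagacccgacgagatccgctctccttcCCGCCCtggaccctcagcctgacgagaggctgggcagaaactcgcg
ZNF492 (chr19:22634074-22634373, plus strand): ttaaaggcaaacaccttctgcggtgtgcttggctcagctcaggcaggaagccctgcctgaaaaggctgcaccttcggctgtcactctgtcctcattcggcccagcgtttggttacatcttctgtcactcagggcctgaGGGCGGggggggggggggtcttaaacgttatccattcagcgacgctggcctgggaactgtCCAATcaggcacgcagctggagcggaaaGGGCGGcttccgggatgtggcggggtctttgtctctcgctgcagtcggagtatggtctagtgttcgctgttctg
ZNF730 (chr19:23116775-23117074, plus strand): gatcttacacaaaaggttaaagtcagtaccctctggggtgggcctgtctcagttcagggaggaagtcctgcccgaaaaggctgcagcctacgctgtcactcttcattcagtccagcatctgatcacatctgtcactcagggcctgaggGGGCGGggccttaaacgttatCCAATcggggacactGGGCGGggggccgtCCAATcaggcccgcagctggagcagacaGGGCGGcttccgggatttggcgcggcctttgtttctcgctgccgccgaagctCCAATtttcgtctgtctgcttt
ZNF93 (chr19:19900696-19900995, plus strand): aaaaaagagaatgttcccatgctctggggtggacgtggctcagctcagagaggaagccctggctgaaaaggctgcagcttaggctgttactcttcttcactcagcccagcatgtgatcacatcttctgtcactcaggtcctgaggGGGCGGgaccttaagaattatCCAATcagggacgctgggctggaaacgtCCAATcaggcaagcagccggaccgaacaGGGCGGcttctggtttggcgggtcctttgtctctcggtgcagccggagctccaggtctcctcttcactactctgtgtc

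The promoters of ZNF492 and ZNF730, both from the cluster on the short arm next to the centromere, shared a run of 22 bases (tctgtcactcagggcctgaggg). ZNF492 and ZNF93 shared a run of 19 (acatcttctgtcactcagg). ZNF730 and ZNF93 shared 14, and ZNF441, which rose, shared 13 with ZNF93, which fell. The longest run shared by the 2 ZNF460 promoters was 7 bases, ZNF441 and ZNF792 shared at most 9, and ZNF460 and ZNF792 at most 10. The genes shown that fell all lie in that cluster and those that rose in different ones, so direction and position cannot be told apart.

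Of the 246 members, 244 had counts in both conditions and were tested. The other 2, ZNF541 and ZNF534, had no count in any vehicle sample and 6 and 4 counts in all nutlin samples together, too few to compare at this depth. Of the members tested, 117 (48.0%) were SDE and higher after nutlin, 47 (19.3%) were SDE and lower, and 80 were not SDE. Over all genes tested, 32.3% were higher and 26.5% lower, and over the 17351 mRNAs tested 32.4% were higher and 38.5% lower. The share of members called in either direction, 67.2%, compares with 58.8% of all genes and 70.9% of all mRNAs, and the difference lay in the direction of the calls. The median LFC of the members was 0.18 (quartiles -0.09 and 0.52), against -0.01 over all mRNAs and 0.19 over all genes tested, lncRNAs included. Most changes were small, since 14 members rose and 9 fell by at least 2-fold on the fitted scale.

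ZNF genes elsewhere in the genome and other genes of chromosome 19 lay between. Among 250 tested ZNF genes of the other chromosomes, 40.0% were higher and 31.6% lower, with a median LFC of 0.07. Among the 1068 other mRNAs of chromosome 19, 37.5% were higher and 30.99% lower, with a median LFC of 0.17. These shares are descriptions, and the differences between the sets were not tested.

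The mean CPM of a gene moved with the direction of its call, so the shares were also set out by mean CPM. Among mRNAs of 4 to 16 CPM, 37.1% were higher and 40.2% lower, and among the 96 members in that range 51.0% were higher and 19.8% lower. At 16 to 64 CPM the mRNAs were at 25.8% and 58.6% and the 69 members at 49.3% and 27.5%. Only 10 members lay above 64 CPM, 4 of them higher and 3 lower, where 64.5% of mRNAs were lower. At 1 to 4 CPM 51.4% of the 35 members and 51.0% of mRNAs were higher, and 8.57% and 19.1% were lower. Under 1 CPM the shares were 35.3% and 35.4% higher, and 8.82% and 4.59% lower. More rises among members than among all mRNAs were thus seen from 4 CPM upward, and fewer falls from 1 CPM upward. From 4 CPM upward, ZNF genes of the other chromosomes departed from all mRNAs in the same directions. They were 46.2% higher and 24.4% lower at 4 to 16 CPM, 39.8% and 40.8% at 16 to 64, and 41.7% and 38.9% above. At 1 to 4 CPM, 18.2% of 11 such genes were higher and 27.3% lower.

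**Figure D1:**
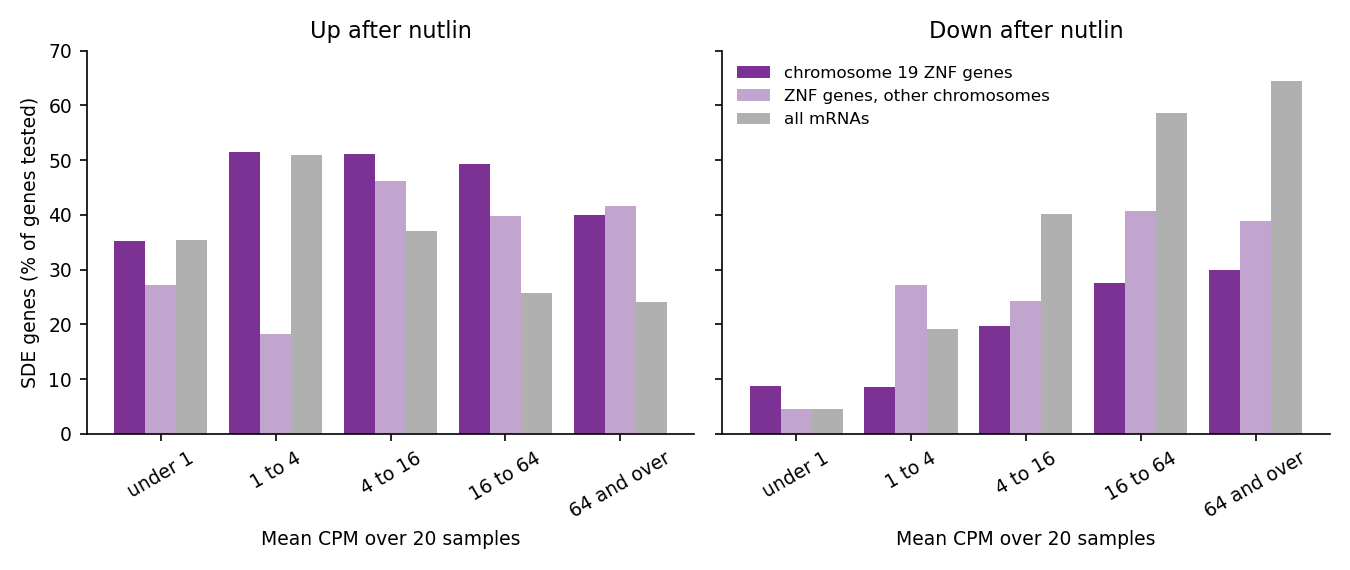
Share of tested genes that were SDE and higher (left) or lower (right) after nutlin, in percent, by mean CPM over the 20 samples, for chromosome 19 ZNF genes, ZNF genes of other chromosomes and all mRNAs. From 16 to 64 CPM, 27.5% of the 69 members and 58.6% of mRNAs were lower.

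A stricter description counts genes of at least 1 CPM that were SDE and whose 10 nutlin samples all lay on one side of the 10 vehicle samples. Of the 210 members of at least 1 CPM, 45 (21.4%) were above and 23 (10.95%) below in this sense. Among 12797 mRNAs of that abundance, the shares were 17.7% above and 34.6% below.

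Members also took up more of the mRNA counts after nutlin. They held between 0.341% and 0.400% of all mRNA counts in the vehicle samples (median 0.369%), and between 0.452% and 0.485% in the nutlin samples (median 0.471%). Every nutlin sample lay above every vehicle sample, with means of 0.371% ± 0.0190 and 0.471% ± 0.00995 (SD, n = 10 each). In the sum of TMM-normalized CPM, the members reached 3766 to 4142 in vehicle and 4173 to 4282 in nutlin, so the groups were also separate there. The means were 3859 ± 116 and 4220 ± 41.2 (SD, n = 10 each), a smaller relative gain than in the share of counts. The share held by a comparison set of genes was not measured. In TPM the share went from 0.232% to 0.288%. The difference was 0.0558 points against 0.0997 in counts, with log2 ratios of 0.31 and 0.34.

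Members were placed in clusters by position, a new cluster beginning wherever the next member started more than 500 kb from the last. This gave 20 clusters, of which 10 held at least 5 members and 232 members in all. Of these 10, 8 had more members higher than lower after nutlin, 1 was even and 1 had more lower. The 10 smaller clusters held 14 members, 10 of them higher and 2 lower. Coordinates are GRCh38.

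**Figure D2:**
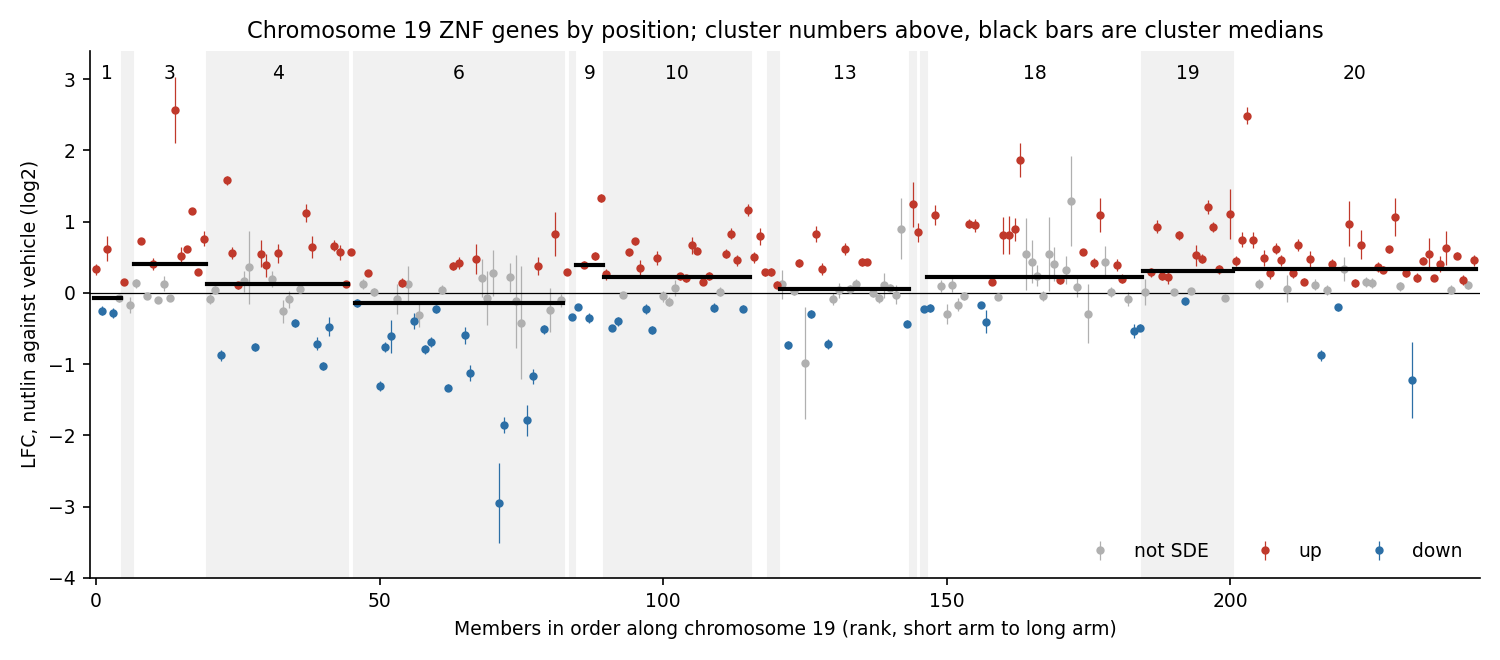
LFC (log2, nutlin against vehicle) of the 244 tested members in their order along chromosome 19, with standard errors as bars, red for SDE and higher, blue for SDE and lower, grey for not SDE. Bands separate the clusters, numbers name those of at least 5 members and black bars give their median LFC, which was -0.14 in cluster 6 and 0.33 in cluster 20.

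The cluster with more falls than rises was cluster 6, at 19.7 to 24.1 Mb, on the short arm beside the centromere, with 37 members from ZNF101 to ZNF254. It held 16 members that were lower, 7 that were higher and 14 that were not SDE, with a median LFC of -0.14. It thus held 16 of the 47 members that were lower on the whole chromosome. The summed level of its members ranged from 390 to 481 CPM in vehicle (median 421) and from 310 to 361 CPM in nutlin (median 341), and no nutlin sample reached the lowest vehicle sample. Without ZNF738, which made the largest contribution, the sums were 342 to 433 and 294 to 343 CPM, so that the groups touched, with a log2 ratio of -0.23 against -0.31. Of the 10 members of this cluster with separate groups in the downward direction, 6 are described below.

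The last cluster, cluster 20 at 57.2 to 58.5 Mb near the end of the long arm, showed the reverse. It held 43 members from ZNF264 to ZNF446, of which 30 were higher, 3 lower and 10 not SDE, with a median LFC of 0.33. The summed level was 398 to 440 CPM in vehicle (median 411) and 488 to 539 CPM in nutlin (median 499), and it stayed separate without ZNF587, its largest contributor (353 to 386 and 431 to 472 CPM).

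**Figure D3:**
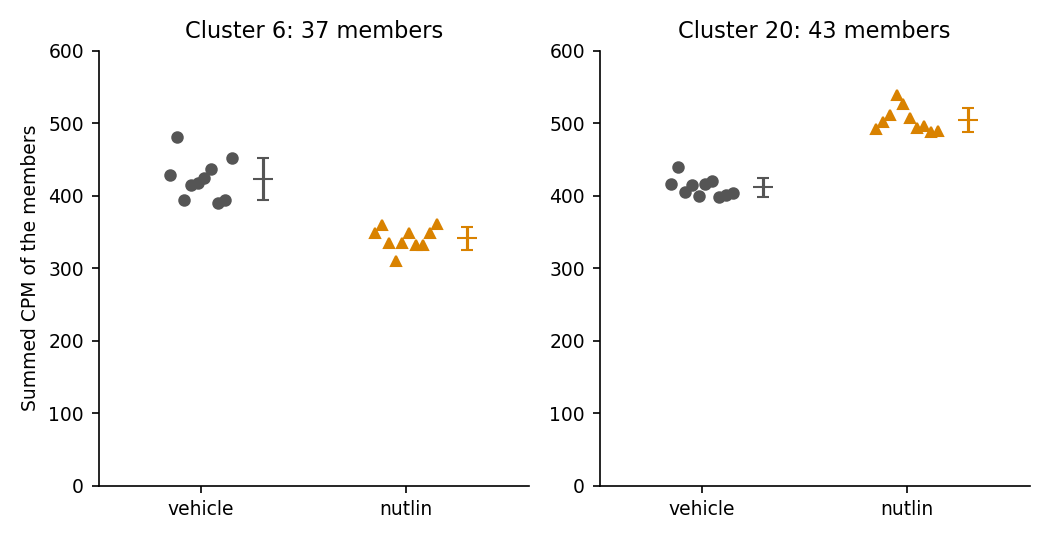
Summed TMM-normalized CPM of the members of cluster 6 (left) and cluster 20 (right) in each vehicle (circles) and nutlin (triangles) sample, with the mean and SD of the 10 samples beside them. In cluster 6 all nutlin samples lie below 361 CPM or at it and all vehicle samples at 390 CPM or above, and in cluster 20 the order is turned.

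Clusters 3 and 19 had the direction of cluster 20. Cluster 3, at 8.5 to 9.8 Mb, had 13 members, of which 8 were higher and none lower, with a median LFC of 0.41. Its summed level went from 531 to 603 CPM in vehicle to 749 to 796 CPM in nutlin, and without ZNF121, the largest contributor, from 383 to 411 to 503 to 527 CPM. Cluster 19, at 55.5 to 56.7 Mb, had 11 of 16 members higher and 1 lower, with a median LFC of 0.31. Other mRNAs tested within the spans of clusters 3, 19 and 20 numbered 7, 17 and 20. Of these, 3, 5 and 7 were higher and 0, 4 and 1 lower, with median LFC of 1.13, 0.09 and 0.52. The span of cluster 6 held 2 other mRNAs, neither of them SDE (median LFC 0.38). Whether members moved apart from the genes around them was not tested.

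The remaining large clusters were mixed. Cluster 4, at 11.5 to 12.6 Mb, had 11 of 25 members higher and 6 lower (median LFC 0.12), and its small gain in summed level (log2 ratio 0.07) turned to -0.10 without ZNF441. Cluster 10, at 36.2 to 37.8 Mb, had 15 of 26 higher and 6 lower (median 0.22), yet its summed level had a log2 ratio of -0.06, which became 0.15 without the abundant ZNF146. Cluster 13, at 43.5 to 44.5 Mb, had 6 of 23 higher and 4 lower (median 0.06). Cluster 18, at 51.6 to 53.6 Mb, had 14 of 38 tested members higher and 5 lower (median 0.22). Clusters 1 and 9, with 5 members each, had 2 and 3 higher and 2 and 2 lower.

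**Figure D4:**
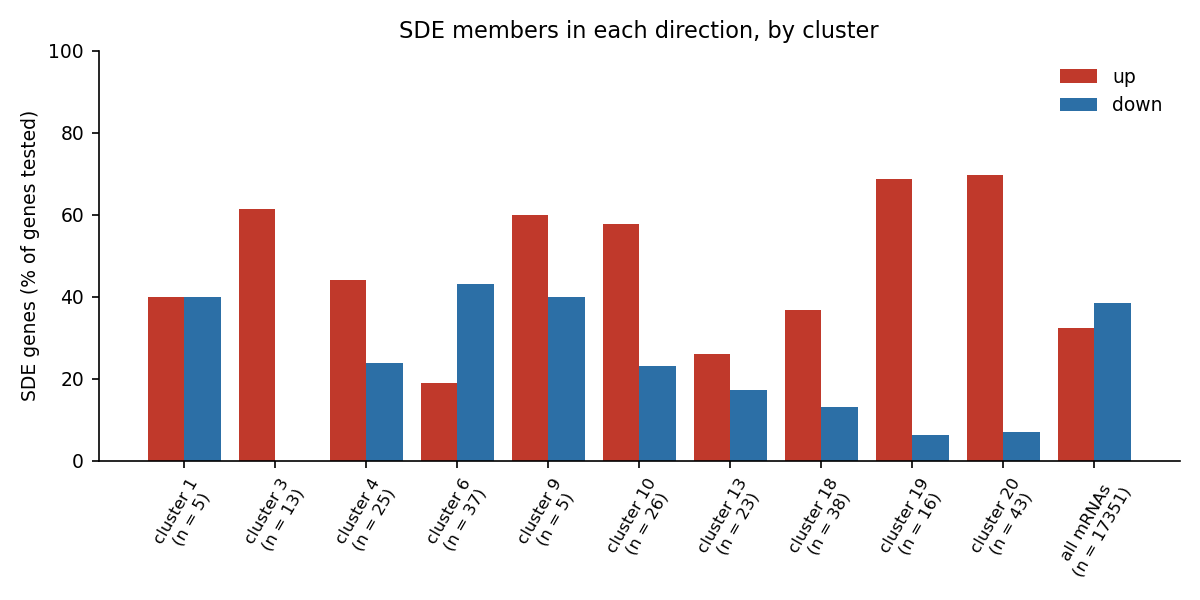
Percent of tested members that were SDE and higher (red) or lower (blue) after nutlin in each cluster of at least 5 members, with all mRNAs at the right for comparison. Cluster 6 is the one in which the blue bar is the taller (16 of 37 lower, 7 of 37 higher), and cluster 3 has no blue bar.

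Neighbours did not always move together. Among 225 pairs of members next to each other in a cluster, 103 had both members SDE, of which 60 pairs were both higher, 13 both lower and 30 opposite. Of all SDE members 71.3% were higher, and whether neighbours shared a direction more often than this share alone would give was not tested. The Spearman correlation of the LFC of neighbours was 0.21 over the 225 pairs, a description only, since neighbours share libraries and can share reads. The widest opposite pair was ZNF823 and ZNF441 in cluster 4. ZNF823 had 13.7 to 18.0 CPM in vehicle and 6.50 to 10.3 CPM in nutlin, and ZNF441 beside it went the other way. In cluster 6, ZNF738 fell and its neighbour ZNF493 rose (21.5 to 27.9 CPM in vehicle, 28.9 to 36.6 in nutlin, LFC 0.38 ± 0.05). The third pair was ZNF43, which fell, and ZNF208, which had an LFC of 0.48 ± 0.21 (edgeR adjusted p = 0.047) with overlapping groups. Its call was lost with limma voom (adjusted p = 0.0744) and in the 16 samples that share a replicate number, with the block (edgeR adjusted p = 0.134) and without (0.138). With the effective transcript length in the model, its LFC was -0.08.

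ZNF460 had the largest rise among members of at least 1 CPM with separate groups. It lies at 57280051 to 57294069 in cluster 20 and encodes a KRAB protein with 11 fingers. Its level was 1.64 to 3.84 CPM in vehicle (median 2.30) and 12.2 to 17.1 CPM in nutlin (median 13.4). All nutlin samples were above all vehicle samples, with an LFC of 2.49 ± 0.12 (edgeR adjusted p = 1.4e-17). Both of its main coding transcripts rose, one 7.98-fold and one 4.84-fold in mean CPM, and both with separate groups. Of its 31-base words, 74.6% occurred in no other gene, so part of its reads could be shared with relatives.

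ZNF441, in cluster 4, followed, with 11.6 to 16.5 CPM in vehicle (median 14.4) and 34.9 to 46.3 CPM in nutlin (median 43.7). Its LFC was 1.58 ± 0.06 (edgeR adjusted p = 5.84e-20), and 97.0% of its 31-base words were its own. ZNF792, in cluster 9, had 9.52 to 14.2 CPM in vehicle and 27.5 to 33.1 CPM in nutlin, an LFC of 1.34 ± 0.06 (edgeR adjusted p = 3.51e-18). In both genes the transcript that held most of the counts rose with separate groups, by 2.80-fold and 2.55-fold.

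ZNF561 in cluster 3 combined a high level with a clear rise. It had 64.4 to 71.8 CPM in vehicle (median 67.3) and 136 to 157 CPM in nutlin (median 149.8), an LFC of 1.14 ± 0.03 (edgeR adjusted p = 1.7e-23). In TPM it went from 38.3 ± 3.69 to 98.2 ± 8.41 (SD, n = 10 each), the highest TPM of any member in the nutlin samples. The lncRNA ZNF561-AS1, on the opposite strand beside it, went from 4.96 to 7.88 CPM in vehicle to 15.5 to 20.3 CPM in nutlin. The libraries were made with a stranded kit, but whether the counting used strand is not given in the sources used here. Reads from any stretch held by both genes could thus not be told apart. Of the 31-base words of ZNF561, 85.3% occurred in no other gene.

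Among members of at least 1 CPM with separate groups, the other 4 of the 8 largest rises were ZNF667, ZNF573, ZNF563 and ZNF432, with LFC from 0.97 to 1.21. ZNF667 in cluster 19 went from 5.14 to 9.13 CPM in vehicle to 11.5 to 20.3 CPM in nutlin, while its antisense neighbour ZNF667-AS1 had medians of 8.95 and 9.08 CPM and was not SDE. ZNF573 went from medians of 4.26 to 9.83 CPM, ZNF563 from 1.15 to 2.60 and ZNF432 from 6.58 to 13.2. Below 1 CPM, ZNF560 had the highest LFC of all members, 2.56, resting on 8 counts in vehicle and 55 in nutlin over 10 samples each; it was named after its value was seen.

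Of the 8 largest falls among members of at least 1 CPM with separate groups, 6 lay in cluster 6. ZNF492 had 6.50 to 12.003 CPM in vehicle (median 9.35) and 1.61 to 3.28 CPM in nutlin (median 2.86), an LFC of -1.85 ± 0.11 (edgeR adjusted p = 6.17e-15). ZNF730 had 1.33 to 2.91 CPM and 0.240 to 1.11 CPM, an LFC of -1.79 ± 0.22 (edgeR adjusted p = 2.52e-08). In neither gene did the groups overlap. Only 55.0% of the 31-base words of ZNF492 were its own, against 81.8% for ZNF730.

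ZNF738 was the most abundant of these. It fell from 41.7 to 48.2 CPM in vehicle (median 46.0) to 15.7 to 20.7 CPM in nutlin (median 18.0), an LFC of -1.33 ± 0.05 (edgeR adjusted p = 8.57e-21). Its 3 main transcripts, 2 coding and 1 annotated for nonsense-mediated decay, all fell with separate groups, by 2.56, 3.12 and 2.75-fold. ZNF724 had medians of 6.68 and 3.21 CPM and ZNF43 of 4.04 and 1.85 CPM. Of the 31-base words of ZNF724, 39.0% were its own, so its value is uncertain.

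The other 2 of the 8 were ZNF443 in cluster 4 and ZNF530 in cluster 20. ZNF443 went from 13.01 to 15.04 CPM in vehicle to 5.31 to 7.73 CPM in nutlin, an LFC of -1.02 ± 0.06, with 43.97% of its 31-base words its own. ZNF530 went from 7.94 to 10.2 CPM to 3.97 to 5.77 CPM, an LFC of -0.87 ± 0.08, against the direction of its cluster. Counting its coding transcripts alone, ZNF530 had an LFC of -0.61 and was not SDE (edgeR adjusted p = 0.0753). That fit was normalized anew on coding transcripts. In it ZNF492, with 100% of its counts on 1 coding transcript, moved from -1.85 to -1.69. The part of such a shift in the other values of that fit, here and below, was not tested. The lowest LFC of all members, -2.95, was that of ZNF98 in cluster 6, below 1 CPM with 68.2 estimated counts in vehicle and 7.90 in nutlin; it was named after its value was seen.

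**Figure D5:**
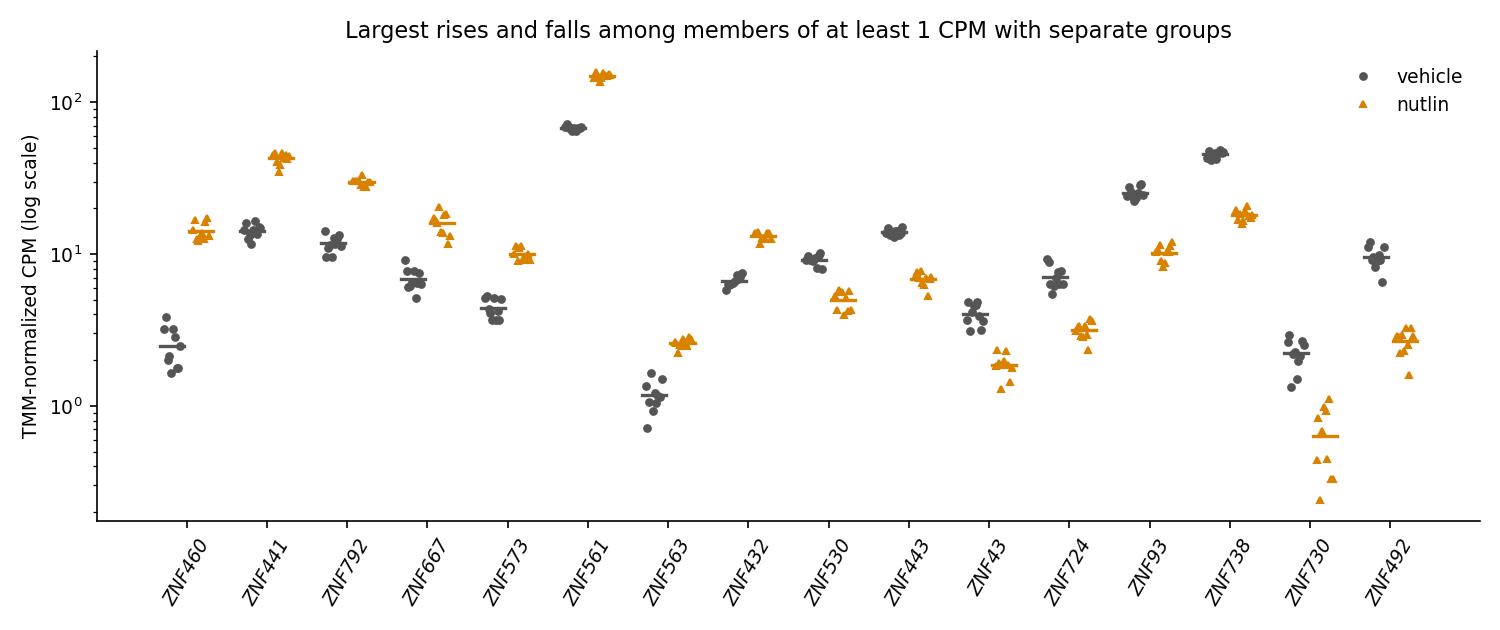
TMM-normalized CPM (log scale) of the 8 members with the largest rise and the 8 with the largest fall, among SDE members of at least 1 CPM whose groups did not overlap, in each vehicle (grey circles) and nutlin (orange triangles) sample, with lines at the group means. ZNF460 went from a median of 2.30 to 13.4 CPM and ZNF738 from 46.0 to 18.0 CPM.

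ZNF93 and ZNF91 are known as repressors of retrotransposons. ZNF93, which binds LINE elements, had 22.2 to 28.9 CPM in vehicle (median 24.8) and 8.27 to 12.02 CPM in nutlin (median 10.3). Its groups were separate, with an LFC of -1.31 ± 0.07 (edgeR adjusted p = 6.48e-17). Its main coding transcript fell 2.73-fold. ZNF91, which binds SVA elements and has 31 fingers by the count used here, lies in the same cluster and had 1.16 to 2.35 CPM in vehicle and 1.85 to 2.90 CPM in nutlin. Its LFC was 0.38 ± 0.13 (edgeR adjusted p = 0.0114), not past a 1% false discovery rate, and its groups overlapped.

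ZNF274, which binds the 3' ends of other ZNF genes and brings SETDB1 there, rose. It had 15.3 to 19.7 CPM in vehicle and 21.0 to 27.6 CPM in nutlin, an LFC of 0.45 ± 0.05 (edgeR adjusted p = 8.6e-09), with separate groups. A transcript with a retained intron held the largest share of its counts, 35.7% in vehicle and 38.3% in nutlin.

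Among members linked to p53 or to DNA damage, ZNF420, described as an inhibitor of p53-driven apoptosis, had 14.6 to 18.2 CPM in vehicle and 16.4 to 21.1 CPM in nutlin. Its LFC was 0.23 ± 0.05 (edgeR adjusted p = 3.03e-04) and the groups overlapped. ZNF350, a partner of BRCA1, had medians of 5.10 and 5.56 CPM and was not SDE (LFC 0.12 ± 0.10, edgeR adjusted p = 0.316), though it was with coding transcripts alone (LFC 0.24, edgeR adjusted p = 0.0462).

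Among members with roles in development, ZNF536, a repressor of neuronal differentiation that lacks a KRAB box, had 93.8 to 111 CPM in vehicle and 118 to 133 CPM in nutlin (LFC 0.30 ± 0.03), with separate groups. ZNF558 in cluster 3 went from 28.0 to 34.7 CPM to 48.7 to 54.7 CPM (LFC 0.73 ± 0.04). ZNF331, an imprinted gene, fell from 57.6 to 61.6 CPM to 36.2 to 48.8 CPM (LFC -0.49 ± 0.05). ZNF568, whose mouse counterpart silences a placental Igf2 transcript, had medians of 5.04 and 5.38 CPM and was not SDE.

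By TPM in the vehicle samples, the most abundant members were ZNF146 (101.3 ± 10.2, SD, n = 10), ZNF428 (73.3 ± 5.72), ZNF580 (44.3 ± 4.87), ZNF738 (40.9 ± 2.57) and ZNF561 (38.3 ± 3.69). In this order ZNF580, ZNF738 and ZNF561 each differed from the next by less than the larger SD of the pair. ZNF146, which consists almost wholly of zinc fingers, fell from 245 to 292 CPM in vehicle to 178 to 193 CPM in nutlin, an LFC of -0.49 ± 0.03 (edgeR adjusted p = 2.4e-14), with separate groups. ZNF428 (medians of 68.4 and 70.3 CPM) and ZNF580 (46.1 and 47.7 CPM) were not SDE. With coding transcripts alone both were SDE and higher (LFC 0.19, edgeR adjusted p = 0.00308, and LFC 0.18, edgeR adjusted p = 3.89e-04), and ZNF580 was also SDE with filterByExpr (LFC 0.10, edgeR adjusted p = 0.0279). In cluster 13, ZNF576 had the largest change with separate groups, from 21.0 to 30.3 CPM to 13.1 to 17.0 CPM (LFC -0.73 ± 0.06). Among the members of highest CPM that were not SDE, ZNF317 had medians of 72.5 and 70.04 CPM and ZNF260 of 65.7 and 64.2 CPM. With coding transcripts alone both were SDE and higher (LFC 0.10, edgeR adjusted p = 0.0154, and LFC 0.11, edgeR adjusted p = 0.0149). In that fit ZNF492, with all its counts on 1 coding transcript, also moved upward, as given above. With the effective transcript length in the model, ZNF317 was SDE and lower (LFC -0.17, edgeR adjusted p = 0.00237). ZNF260 was SDE and higher there (LFC 0.25, edgeR adjusted p = 0.0202), so the call of ZNF317 depended on the fit in its direction too.

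Genes whose products act with KRAB zinc finger proteins were mostly lower. Of a list of 30 such genes, all tested, 27 were lower and 3 were higher, with a median LFC of -0.50. Of the 26 with a mean of at least 64 CPM, 24 were lower and 2 higher, where 64.5% of mRNAs in that range were lower and 24.0% higher. The median LFC of all mRNAs in that range was -0.28. Under the other fits 26 to 30 of the list were SDE, 22 to 27 of them lower, and 28 were SDE at a 1% false discovery rate. The 3 that rose were SETDB1 (LFC 0.14 ± 0.03), MTA2 (0.62 ± 0.03), a subunit of the NuRD deacetylase complex, and ZNF274, itself a member. TRIM28, the scaffold, had 371 to 450 CPM in vehicle and 344.0 to 391.6 CPM in nutlin, an LFC of -0.19 ± 0.04 (edgeR adjusted p = 2.93e-05) with overlapping groups. With coding transcripts alone its LFC was -0.04 and it was not SDE (edgeR adjusted p = 0.398), while TASOR, a subunit of the HUSH silencing complex, turned from -0.15 to 0.30 (edgeR adjusted p = 2.63e-05). CHD4 moved from -0.99 to -0.83 in the same fit, and the part of its new normalization in these changes was not tested.

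The largest fall in this list was that of UHRF1, which carries DNA methylation through replication with DNMT1. It fell from 360 to 399 CPM to 42.4 to 55.3 CPM (LFC -2.95 ± 0.04). The histone chaperone subunits CHAF1B and CHAF1A had LFC of -2.48 ± 0.06 and -2.39 ± 0.05, the de novo DNA methyltransferase DNMT3B one of -1.90 ± 0.08, and the histone-binding protein RBBP7 one of -1.59 ± 0.04. The heterochromatin proteins CBX1, CBX3 and CBX5 had LFC of -1.45, -1.06 and -0.51, and the deacetylases HDAC1 and HDAC2 of -0.84 and -1.05.

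Features of the proteins were counted on the translated canonical transcript of each gene. A KRAB pattern was found in 156 tested members, of which 77 were higher and 27 lower (median LFC 0.21), and not found in 88, of which 40 were higher and 20 lower (median 0.13). The pattern misses divergent boxes, so the second set is not free of KRAB proteins. By number of fingers, 39 of 72 members with 6 to 10 fingers were higher and 9 lower, 44 of 104 with 11 to 15 were higher and 24 lower, and 29 of 56 with more were higher and 12 lower. Rises outnumbered falls in each of these sets.

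Members share sequence, and reads that fit several genes are divided among them by estimation. Of the 174 members with at least 80% of their 31-base words found in no other gene, 89 were higher and 35 lower, with a median LFC of 0.20, close to 0.18 over all members. Of the 11 members with under 50%, 5 were higher and 3 lower.

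Promoter sequences were available for 216 members (268 promoters). CCAAT was found in 134 of these promoters, against 34.6% of all 35116 promoters in the table. CCGGAAGT was found in 17.9%, against 4.14% of all promoters and 5.90% of those of tested mRNAs. GGGCGG was found in 64.9%, against 45.0% and 60.02%. TTTGAA was found in 10.1%, against 15.2% and 11.5%. A single decamer of the p53 response element was found in 6.72% of the members' promoters and 6.63% of all. A match is a description of letters and does not show binding.

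The clusters differed in these motifs. In cluster 6, 29 of 30 promoters (96.7%) held CCAAT, 21 of them at least 2 copies, and none held CCGGAAGT. Of its 53 CCAAT matches, 49 lay within the 150 bases before the start. In cluster 20, 28 of 43 promoters (65.1%) held CCAAT and 23 (53.5%) held CCGGAAGT, whose matches had a median position 20 bases before the start. In cluster 4, with mixed calls, 88.5% of 26 promoters held CCAAT and 3.85% CCGGAAGT. In cluster 3, which rose, 30.8% of 13 promoters held CCAAT and none CCGGAAGT. In cluster 1, all 6 promoters held CCAAT and none CCGGAAGT. Clusters 1, 6 and 4 thus had the largest CCAAT shares among the 10 clusters of at least 5 members, with median LFC of -0.07, -0.14 and 0.12. In the others the median LFC ran from 0.06 (cluster 13, 21.7% of promoters with CCAAT) to 0.41 (cluster 3). CCGGAAGT was absent both from cluster 6, which fell, and from cluster 3, which rose. Whether the share of either motif went with direction across clusters was not tested.

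Across all clusters, of 46 tested members with CCGGAAGT in a promoter, 28 (60.9%) were higher and 8 (17.4%) lower, with a median LFC of 0.26, against 76 (45.2%) and 36 (21.4%) of 168 without it (median 0.13). Of the 48 promoters with the motif, 23 lay in cluster 20, so motif and position cannot be told apart. Of 123 members with CCAAT, 58 were higher and 28 lower (median 0.13), and of 91 without, 46 and 16 (median 0.24). Of 152 with GGGCGG, 81 (53.3%) were higher and 30 lower (median 0.23), and of 62 without, 23 (37.1%) and 14 (median 0.12). Of 26 with TTTGAA, 13 were higher and 3 lower (median 0.20), and of 188 without, 91 and 41 (median 0.15). The differences between members with and without a motif were not tested.

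The share of the members' counts that came from coding transcripts went from 90.8 to 91.9% in vehicle to 89.7 to 90.3% in nutlin, and that of transcripts with a retained intron from 3.62 to 4.39% to 4.63 to 5.01%. The groups were separate in both. Over all mRNA genes, retained-intron transcripts went from a median of 5.59% to 6.81%, a larger step than the 4.04% to 4.77% of the members. Transcripts annotated for nonsense-mediated decay gained 0.318 points in the members and 0.308 points over all mRNA genes.

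Finally, 40 lncRNAs of at least 1 CPM lay within 2000 bases of 46 members. Of these lncRNAs 23 (57.5%) were higher, 1 lower and 16 not SDE, where 53.6% of all 2371 lncRNAs of that abundance were higher and 17.0% lower. The share higher was thus close to that of lncRNAs in general, while the share lower was smaller (2.5% against 17.0%). Neither difference was tested. Of 25 pairs in which both the member and the lncRNA were SDE, 20 had the same direction, where 23 of the 24 SDE lncRNAs and 71.3% of all SDE members were higher.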

How the data were processed

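RNA-seq was done on 10 vehicle and 10 nutlin samples of NGP cells. The authors pseudo-aligned the reads with kallisto 0.42.4 to Ensembl 85 transcripts (GRCh38) and deposited estimated counts, TPM and effective lengths for 198968 transcripts per sample. Here, 191106 transcripts (96.05%) were matched to GENCODE 44 and summed per gene, and the sums were rounded. The matched transcripts held 96.66 to 96.78% of the estimated counts in the vehicle samples and 95.71 to 95.95% in the nutlin samples. The part of this difference in the results was not tested. A gene entered the test when its summed count was at least 1 among vehicle and also among nutlin samples. The test was edgeR 4.0.16 (R 4.3.3), quasi-likelihood with TMM and a model of condition alone, adjusted by Benjamini-Hochberg over 27697 genes. The script was tested on simulated data. Alternatives used DESeq2 1.42.0 and limma 3.58.1, other filters, length offsets, a replicate block and other membership rules.

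Errors of LFC are standard errors. Named members were the 8 largest rises and 8 largest falls of at least 1 CPM with separate groups, the 5 of highest TPM, 9 with known roles, the member with the largest absolute LFC in each cluster of at least 10 members (under the same conditions), 3 opposite neighbouring pairs and the 3 of highest mean CPM not SDE. The members and lists were chosen with earlier results of these data known. The protein, transcript, lncRNA and leave-one-member descriptions were added after the data were seen. Depth limits members under 1 CPM (34 of 244). The study calls the samples biological replicates of the one line, and p-values cover the spread between such cultures only. The length of treatment is not given in the sources used here.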

Additional observations from a re-analysis of the deposited data

Results flagged for a closer look

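Of 66 sets of 10 samples (33 named members in each group), 9 held a sample far from the other 9 by Dixon's test, which flags about 1 in 20 sets by chance. Among the vehicle samples, ZNF146 had 292 CPM in replicate 4 (others 245 to 270.0), ZNF260 had 78.7 CPM in the same replicate (others 61.0 to 68.9), ZNF428 had 87.7 CPM in replicate 10 (others 57.1 to 73.0), ZNF274 had 15.3 CPM in replicate 12 (others 17.5 to 19.7), ZNF350 had 7.64 CPM in replicate 5 (others 4.28 to 5.75) and ZNF536 had 111 CPM in replicate 8 (others 93.8 to 103). Among the nutlin samples, ZNF792 had 33.1 CPM in replicate 7 (others 27.5 to 30.2), ZNF428 had 81.9 CPM in replicate 6 (others 64.002 to 73.5) and ZNF208 had 0.449 CPM in replicate 8 (others 1.23 to 1.80).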

How the results depend on the processing

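The number of SDE members (164) ranged from 137 to 175 over the other fits and the wider name rule, with 99 to 142 higher and 33 to 48 lower. Among the 174 members with at least 80% of their 31-base words their own, chosen after seeing the data, 124 were SDE, 89 higher and 35 lower, so that rises outnumbered falls under each. The median LFC, 0.18, was 0.23 with DESeq2 size factors, DESeq2 or filterByExpr, 0.21 with at least 1 count in any sample, 0.20 with a length offset and 0.31 with coding transcripts alone. Other genes moved too: CHD4 went from -0.99 to -0.94 with DESeq2 size factors, -0.91 with filterByExpr and -0.83 with coding transcripts alone. Medians over all mRNAs are not given for these settings, so a stronger rise of the members relative to other genes cannot be read from them. The difference in the share of mRNA counts was 0.0558 points by TPM (log2 ratio 0.31 against 0.34). ZNF208 reversed with the length offset (-0.08), ZNF260 with the length offset (0.25) and with coding transcripts alone (0.11), and ZNF317 with the latter (0.10). These values of ZNF260 and ZNF317 were SDE, and ZNF317 was SDE and lower with the length offset (-0.17). Neither ZNF260 nor ZNF317 was SDE in the data as reported, and with no call on either side their LFC also changed sign with DESeq2 size factors and with DESeq2 (0.01 and 0.0) and with filterByExpr (0.04 and 0.03). In 330 comparisons of named members, 309 kept direction and call, 6 lost the call, 5 gained it and 10 reversed; the cause was not tested. Under the fits tried, cluster 6 had 3 to 9 members higher and 13 to 16 lower, and cluster 20 had 24 to 35 higher and 0 to 3 lower. A gap of 1 Mb gave 9 clusters of at least 5 members, 1 with more falls, and a gap of 250 kb gave 12, 2 with more falls.

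The replicate numbers did not pair the samples: over 8 shared numbers the correlations of deviations ran from -0.078 to 0.095, and 1 of 8 vehicle samples correlated best with its own number. With the replicate number as a block (16 samples), 147 members were SDE, 105 higher and 42 lower, against 153, 110 and 43 in the same samples without the block. Depth limits members under 1 CPM.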
